A study of Mus musculus with 8 samples.

Results

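The genes described here are 10 lineage genes of stromal cells, chosen by symbol from the deposited table of 13387 genes. They comprise 4 osteogenic genes (Runx2, Alpl, Spp1 and Dlx5), 4 adipogenic genes (Pparg, Cebpb, Fabp4 and Lpl) and 2 mesenchymal regulators (Prrx1 and Twist1). All 10 had a row in the table, and 7 of them passed the filter on low counts. Bulk RNA-Seq was performed on cells of C57BL/6 mice aged 8 to 12 weeks, with 4 libraries from megakaryocytes (MKs) cultured alone and 4 libraries from MKs cocultured with mesenchymal stem cells (MSCs). Every culture lasted 18 hours. MKs were enriched from bone marrow with beads against CD41, and MSCs were sorted as CD45-Ter119-CD31-CD51+PDGFRα+ cells and adhered before the MKs were added. The labels give the sequenced cells as megakaryocytes, whereas the study's methods describe RNA of platelets pooled from several wells, and MKs and platelets in suspension were separated from the MSCs by hand. Neither group carried a transgene or an engineered deletion, and no library of MSCs alone is among the 8. In bulk libraries, a change in the number of cells of a type and a change in RNA per cell cannot be told apart.

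MSCs of the marrow can give rise to bone-forming osteoblasts and to adipocytes. Runx2 and Dlx5 are transcription factors of the osteogenic path, Alpl encodes the alkaline phosphatase that clears pyrophosphate from mineralizing matrix, and Spp1 encodes osteopontin, a secreted matrix protein. Cebpb acts early in adipogenesis and Pparg is its central nuclear receptor, while Fabp4 and Lpl encode a fatty acid carrier and the lipase that frees fatty acids from circulating lipoproteins. Prrx1 and Twist1 are transcription factors of uncommitted mesenchyme. Several of these genes are not limited to the stroma: Spp1, Lpl, Pparg, Cebpb and Fabp4 are also known from macrophages, and Runx2 from other blood cells.

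The libraries held between 4939874 and 12523616 counts. The third coculture library stood apart: 10735 genes had a count there, against 13104 to 13193 in the other cocultures, and its Spearman correlation with them was 0.722 to 0.750, against 0.976 to 0.981 among the other three. Values are therefore given with and without it. Levels are given as CPM, in which edgeR's TMM factors bring the libraries to one scale, and 3 counts were worth 0.284 to 0.662 CPM, depending on the library. MK markers were present in every library, with all 12 genes of the list in the table and a mean log2(CPM + 1) of 5.60 to 5.81 alone and 5.12 to 5.50 in coculture. The 10 neutrophil markers had a mean of 11.4 to 11.8 in the MKs cultured alone and 7.10 to 8.37 in the cocultures. S100a8, a neutrophil calcium-binding protein, thereby reached 48457 CPM alone and 4404 CPM in coculture (log2 fold change -3.46, edgeR adjusted p = 0.000565), so the libraries held transcripts of marrow cells other than MKs.

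Start sites of 7 members were listed in RefSeq on GRCm38.p6, with 11 windows of 250 bases before to 50 after the start. Dlx5, Fabp4 and Lpl had no entry. Of the 11 windows, 4 hold a motif bound by the Runx or C/EBP families to which Runx2 and Cebpb belong, the Runx core (ACCACA) or a C/EBP site (TTGCNNAA). Both windows with the Runx core are printed, and of those with a C/EBP site the Pparg window, which holds it at 2 places. Both motifs were searched on both strands. Sequences read from 5′ to 3′ on the strand of the gene, and capitals mark the motif. The first window is that of the upstream Spp1 start, chr5:104434861-104435160 on the plus strand, where the core begins 128 bases before the start.
Spp1, Runx core: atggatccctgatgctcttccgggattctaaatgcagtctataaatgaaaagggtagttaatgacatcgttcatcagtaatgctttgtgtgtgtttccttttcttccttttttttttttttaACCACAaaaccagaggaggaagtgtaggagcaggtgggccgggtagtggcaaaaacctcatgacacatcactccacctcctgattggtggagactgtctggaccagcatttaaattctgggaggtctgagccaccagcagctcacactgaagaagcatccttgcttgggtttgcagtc
The Runx2 window, chr17:44814578-44814877 on the minus strand, holds 3 Runx cores, which begin 80 bases before and 23 and 31 bases after the start.
Runx2, Runx core: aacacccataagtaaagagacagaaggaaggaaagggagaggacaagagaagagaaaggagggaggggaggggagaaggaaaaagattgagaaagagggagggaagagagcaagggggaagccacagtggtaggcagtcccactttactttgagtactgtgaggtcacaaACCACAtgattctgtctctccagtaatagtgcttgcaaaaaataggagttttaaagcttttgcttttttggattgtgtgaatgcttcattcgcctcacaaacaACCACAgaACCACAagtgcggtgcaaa
The window of the last of 3 Pparg starts, chr6:115421816-115422115 on the plus strand, holds C/EBP sites that begin 215 and 16 bases before the start.
Pparg, C/EBP site: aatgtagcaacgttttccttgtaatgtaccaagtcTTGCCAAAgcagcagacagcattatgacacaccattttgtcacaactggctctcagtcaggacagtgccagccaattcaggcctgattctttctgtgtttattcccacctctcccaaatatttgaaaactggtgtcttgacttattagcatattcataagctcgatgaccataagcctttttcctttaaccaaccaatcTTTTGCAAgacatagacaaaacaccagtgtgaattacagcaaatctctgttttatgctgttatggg
The Runx core was found in 2 of the 11 windows and in 16.8% of all 32851 windows. The C/EBP site was in 3 of the 11 windows, in Spp1, Pparg and Runx2, and in 10.8% of all windows. Among the other motifs, the E-box (CANNTG) was in 7 of the 11 windows and in 72.3% of all windows, and the nuclear receptor core (AGGTCA) was in 4 of the 11 windows and in 16.3% of all windows. The Runx cores and E-boxes of the Runx2 window overlap in part. These matches are a description of the letters, and binding was not measured.

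Members of all 3 classes were higher in the cocultures. Of the 7 members tested, 6 were called higher and 0 lower by edgeR, where 13.2% of all 11722 genes tested were called higher and 7.31% lower. At an unadjusted p under 0.05, 6 members were higher and 1 lower, beside 21.7% and 14.5% of all genes tested. DESeq2 called 9 members higher and 1 lower, beside 17.9% and 10.5% of all genes. The calls asked for a fold change of 2 or more, an adjusted p no higher than 0.05 and a group mean that reached 1 CPM in either group. The 6 called members were Spp1, Pparg, Cebpb, Fabp4, Lpl and Prrx1, and in each of them the lowest coculture library was above the highest library of MKs cultured alone. Across all genes tested, 19.3% were separated in this way with the cocultures higher and 21.1% with the cocultures lower. Runx2 was separated in the other direction, with every coculture below every library of MKs cultured alone, but it was not called. Alpl, Dlx5 and Twist1 had too few counts to be tested, so the 6 of 7 leave them out. Fabp4 and Prrx1 passed the filter through the cocultures alone and could hardly have come out lower. Without the third coculture library, 9 members were tested and 8 were called higher, where 20.6% of all genes were called higher and 15.4% lower. These were the 6 above with Alpl and Twist1. Alpl and Twist1 held at most 2 counts in a library of MKs cultured alone, so they too could hardly have come out lower.

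**Figure D1:**
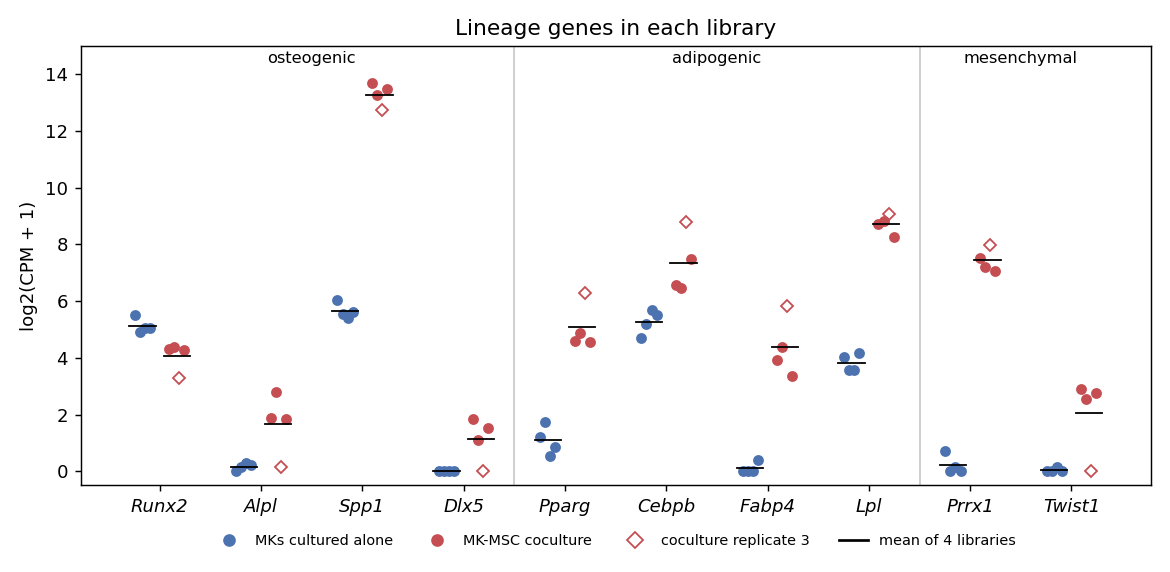
Level of each lineage gene as log2(CPM + 1) in the 8 libraries, with points for single libraries, open diamonds for the third coculture library and lines for the mean of 4 libraries. Runx2 is the member that sits lower in the cocultures, and the third library is lowest for Runx2, Alpl, Spp1, Dlx5 and Twist1 and highest for Pparg, Cebpb, Fabp4, Lpl and Prrx1.

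Among the osteogenic regulators, Runx2 (chr17:44495987-44814797, minus strand) was detected in every library. Its level was 44.6, 29.0, 31.8 and 31.9 CPM in MKs cultured alone and 18.7, 19.8, 8.89 and 18.2 CPM in the cocultures. The groups did not overlap, and the third coculture was 2.12-fold below the mean of the other three. The mean was 34.3 ± 6.98 CPM alone and 16.4 ± 5.04 CPM in coculture (SD, n = 4), a log2 fold change of -1.06 ± 0.36 (SE) that missed the threshold (edgeR adjusted p = 0.0631). DESeq2 gave a log2 fold change of -1.09 with an adjusted p of 0.0037 and called it lower. Without the third coculture the log2 fold change was -0.87 ± 0.21, with an adjusted p of 0.00247 in edgeR and a fold below 2. Runx2 overlaps Supt3 on the other strand, with no exon base in common.

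Dlx5 (chr6:6877805-6882085, minus strand), a homeobox regulator of osteoblasts, held 0 counts in all 4 libraries of MKs cultured alone. The cocultures held 27, 9, 0 and 11 counts, and 3 of the 4 cocultures were thus above 0. Its mean coculture level was 1.41 ± 1.10 CPM (SD, n = 4), at least 13.7-fold higher than the level of 3 counts over the libraries of MKs cultured alone. It was not tested in the filtered table. In a fit of every gene, Dlx5 had a log2 fold change of 6.48 ± 1.95 (SE) and was not called (edgeR adjusted p = 0.061), whereas DESeq2 called it with an adjusted p of 0.0453. Of the other Dlx genes, Dlx2 held 0 counts alone and 27, 9, 0 and 39 in coculture, and Dlx6 held 0 to 8 counts alone and 19, 8, 188 and 4 in coculture. Neither passed the filter.

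Of the osteogenic products, Spp1 (chr5:104435118-104441050, plus strand) had the highest level of all members in both groups. The 4 libraries of MKs cultured alone had 65.1, 45.3, 40.9 and 48.0 CPM. The cocultures had 13156, 9767, 6791 and 11332 CPM. Every coculture library was far above every library of MKs cultured alone, and the third was the lowest of the cocultures. The means were 49.8 ± 10.6 and 10261 ± 2697 CPM (SD, n = 4), a 206-fold difference, with a log2 fold change of 7.69 ± 0.35 (SE, edgeR adjusted p = 6.1e-06). With any 1 library left out, the log2 fold change of Spp1 stayed between 7.55 and 7.83.

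Alpl (chr4:137741733-137796384, minus strand) was near the floor in MKs cultured alone, with 0, 1, 2 and 1 counts. The cocultures held 28, 46, 1 and 15 counts of Alpl. Replicates 1, 2 and 4 were above all libraries of MKs cultured alone, and the third lay within their range. Its mean was 0.122 CPM alone and 2.84 ± 2.42 CPM in coculture, a 23.3-fold difference. Alpl was called in the fit of every gene (log2 fold change 4.27 ± 1.23, edgeR adjusted p = 0.0374), where 13.5% of all 13387 genes were called higher, and by DESeq2 (adjusted p = 0.00518). When the third coculture was left out, it had a log2 fold change of 4.62 ± 0.68 and an adjusted p of 2.59e-05. It was tested and not called when any 1 library of MKs cultured alone was left out, with adjusted p of 0.079 to 0.0967.

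Of the adipogenic regulators, Pparg (chr6:115360951-115490399, plus strand) went from near the floor to a clear level. Its level was 1.32, 2.37, 0.444 and 0.813 CPM alone and 23.3, 28.3, 77.3 and 22.7 CPM in coculture. All cocultures were above all libraries of MKs cultured alone, and the third was 3.12-fold above the mean of the other three. The means of 1.24 ± 0.837 and 37.9 ± 26.4 CPM (SD, n = 4) differed 30.6-fold (log2 fold change 4.91 ± 0.72, edgeR adjusted p = 0.00161). The mean of the other three cocultures was 24.8 ± 3.04 CPM (n = 3), and with these the log2 fold change was 4.25 ± 0.39 (adjusted p = 1.27e-07).

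Cebpb (chr2:167688915-167690418, plus strand) was present in both groups and rose by less than the other called members. It had 24.7, 35.5, 50.6 and 44.3 CPM in MKs cultured alone and 94.4, 86.9, 447 and 180 CPM in the cocultures. The third coculture was 3.71-fold above the mean of the others, and the groups did not overlap. The means were 38.7 ± 11.2 and 202 ± 169 CPM (SD, n = 4), with a log2 fold change of 2.38 ± 0.55 (SE, edgeR adjusted p = 0.0148). This call was lost when replicate 1 or replicate 2 of the MKs cultured alone was left out, with log2 fold changes of 2.21 and 2.38 and adjusted p of 0.0556 and 0.0529. It held without the third coculture, where the log2 fold change fell to 1.61 ± 0.27 (adjusted p = 8.08e-05). The gene shares 312 exon bases with Tmem189 on the other strand, and whether strand was used in counting is not given in the sources used here. Tmem189 had a log2 fold change of 0.89 (adjusted p = 0.0572).

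Of the adipogenic products, Fabp4 (chr3:10204088-10208576, minus strand) held 0, 0, 0 and 2 counts in MKs cultured alone. The cocultures held 148, 151, 537 and 54 counts of Fabp4, or 14.0, 19.7, 56.2 and 9.37 CPM. Every coculture library had the transcript, and 3 of the 4 libraries of MKs cultured alone had none. With the counts of each group summed, the ratio was 390 (95% interval 108 to 3225, counting error only), and the log2 fold change was 8.14 ± 1.23 (SE, edgeR adjusted p = 0.00186). The third coculture was 3.91-fold above the mean of the other three, and without it the log2 fold change was 7.38 ± 0.65 (adjusted p = 7.31e-08). Without replicate 4 of the MKs cultured alone, which held both counts of that group, it was 10.65 (adjusted p = 0.00869).

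Lpl (chr8:68880491-68907448, plus strand) varied least among the adipogenic members. Its level was 15.2, 10.8, 10.9 and 16.9 CPM alone and 422, 454, 544 and 309 CPM in coculture. The cocultures lay in a narrow range well above that of the MKs cultured alone. The means of 13.5 ± 3.10 and 432 ± 97.1 CPM (SD, n = 4) differed 32.1-fold, with a log2 fold change of 5.01 ± 0.28 (SE, edgeR adjusted p = 1.51e-05). The log2 fold change was 4.87 to 5.18 with any 1 library left out.

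The mesenchymal regulators were close to absent in MKs cultured alone. Prrx1 (chr1:163245119-163313710, minus strand) held 3, 0, 1 and 0 counts there. It reached 183, 146, 253 and 132 CPM in the cocultures, which were all far above the libraries of MKs cultured alone. The mean was 0.193 ± 0.317 CPM alone and 179 ± 54.0 CPM in coculture (SD, n = 4), a 924-fold difference (log2 fold change 10.12 ± 0.79, edgeR adjusted p = 5.67e-05). Since the fold rests on 4 counts in MKs cultured alone, leaving out a library moved the log2 fold change between 9.63 and 11.65.

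Twist1 (chr12:33957671-33959829, plus strand) held 0, 0, 1 and 0 counts in MKs cultured alone. The cocultures held 68, 37, 0 and 33 counts. Replicates 1, 2 and 4 of the cocultures had the transcript, and the third had none, which allows up to 3 counts. The ratio of the summed counts was 121 (95% interval 21.4 to 4810, counting error only). Twist1 did not pass the filter, and in the fit of every gene its log2 fold change was 6.44 ± 1.67 (edgeR adjusted p = 0.025). It was 6.81 ± 0.72 when the third coculture was left out (adjusted p = 6.71e-07). Twist1 was tested and not called when any 1 library of MKs cultured alone was left out, with adjusted p of 0.0735 to 0.0886 and a log2 fold change of up to 8.02 without replicate 3, which held the only count of that group.

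**Figure D2:**
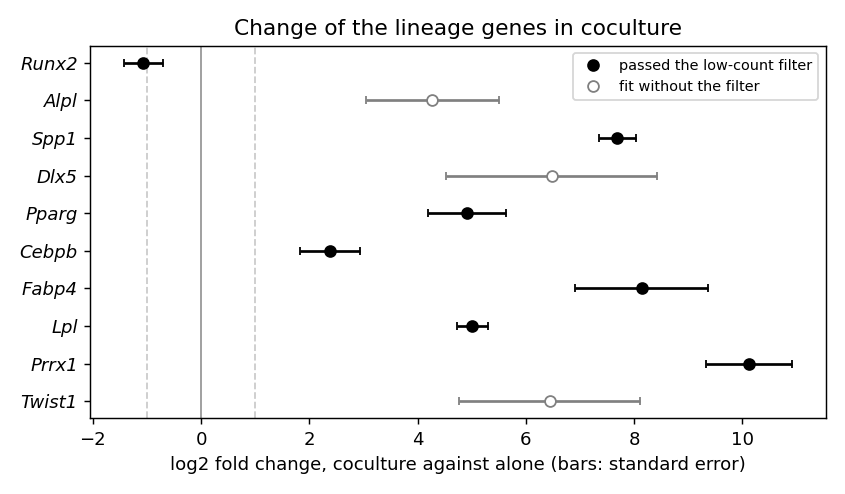
Log2 fold change of each lineage gene in cocultures against MKs cultured alone, with bars for the standard error and dashed lines at a fold of 2 in either direction. Filled points passed the filter on low counts, and open points (Alpl, Dlx5 and Twist1) come from the fit without it, with Prrx1 the highest at 10.12 and Runx2 below 0 at -1.06.

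Set per kilobase of the longest coding transcript, the coculture levels could be ordered between genes. Spp1 had 6809 CPM per kilobase, followed by Cebpb with 134, Lpl with 105, Fabp4 with 27.7, Prrx1 with 27.4 and Pparg with 17.8. Twist1, Runx2, Alpl and Dlx5 had between 0.991 and 2.61 CPM per kilobase. In MKs cultured alone, the order began with Spp1 with 33.1, Cebpb with 25.8, Runx2 with 5.31 and Lpl with 3.27 CPM per kilobase, and the other six were below 0.6. Runx2 thus ranked the third of the members in MKs cultured alone and the eighth in coculture. The order of Cebpb and Lpl turned without the third coculture, to 80.2 and 96.0 CPM per kilobase, as did that of Fabp4 and Prrx1. Neighbours such as Fabp4 and Prrx1, or Twist1 and Runx2, were closer than the spread between coculture libraries.

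For 4 members, the share of the counts of their own gene family was compared, because a share within a library does not depend on how libraries are scaled. Pparg made up 55.6% ± 17.5 of the counts of Pparg and Ppard, a broadly expressed relative, in MKs cultured alone and 95.5% ± 2.92 in coculture (SD, n = 4). The difference was 39.9 percentage points (two-sided exact permutation test, p = 0.0286, adjusted p = 0.0381 over 4 families), and no lower p than 0.0286 can be had from 4 libraries a group. The family held only 8 to 35 counts in the libraries of MKs cultured alone. Ppara had no row in the table.

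Cebpb made up 11.8% ± 2.56 of the counts of 5 C/EBP genes alone and 54.3% ± 10 in coculture (SD, n = 4), a difference of 42.5 percentage points (exact permutation test, p = 0.0286, adjusted p = 0.0381). The lowest coculture library, with 44.2%, was above the highest library of MKs cultured alone, with 14.1%. Its relatives went the other way or did not pass the test. Cebpe, a granulocyte factor, fell from 80.4 to 9.19 CPM (log2 fold change -3.13, edgeR adjusted p = 0.00753), and Cebpd, which acts beside Cebpb in early adipogenesis, fell from 73.3 to 24.3 CPM (-1.59, adjusted p = 0.00349). Cebpa, which follows them in adipogenesis and also serves the granulocyte lineage, had 19.8 and 9.63 CPM (-1.04, adjusted p = 0.117). Cebpg had a log2 fold change of -0.19 (adjusted p = 0.772). Cebpz, grouped here by name and not counted among the 5 genes, had -0.63 (adjusted p = 0.0778).

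Fabp4 made up 0.385% ± 0.769 of the counts of 4 Fabp genes alone and 11.2% ± 3.55 in coculture (SD, n = 4), a difference of 10.8 percentage points (exact permutation test, p = 0.0286, adjusted p = 0.0381). Fabp4 held 0, 0, 0 and 2 counts in MKs cultured alone, so its share could hardly have come out lower in coculture. The p of 0.0286 is also the lowest that this permutation test can give. Fabp5, a fatty acid carrier of many cell types, held most of the family in both groups. It rose from 23.2 to 167 CPM (log2 fold change 2.85, edgeR adjusted p = 0.000676). Fabp3 and Fabp7, known from muscle and from the nervous system, held at most 6 counts in any library of MKs cultured alone and 41, 33, 0 and 49 counts and 26, 60, 0 and 11 counts in the cocultures.

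The Runx family differed from the other three. Runx2 made up 14.9% ± 1.31 of the counts of Runx1, Runx2 and Runx3 alone and 15.3% ± 5.48 in coculture (SD, n = 4), a difference of 0.444 percentage points (exact permutation test, p = 0.943). The share in the third coculture was 7.35%, and the difference was 3.09 points without that library. Runx1, the hematopoietic member, had 131 and 77.1 CPM (log2 fold change -0.77, edgeR adjusted p = 0.0426), below the fold asked for. Runx3, known from lymphocytes and myeloid cells, fell from 64.0 to 16.2 CPM (-1.99, adjusted p = 0.0138), and Cbfb, the partner subunit of all Runx proteins, had 193 and 97.1 CPM (-0.99, adjusted p = 0.113). For all 4 of these genes, the highest coculture was below the lowest library of MKs cultured alone, as for 21.1% of all genes tested.

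**Figure D3:**
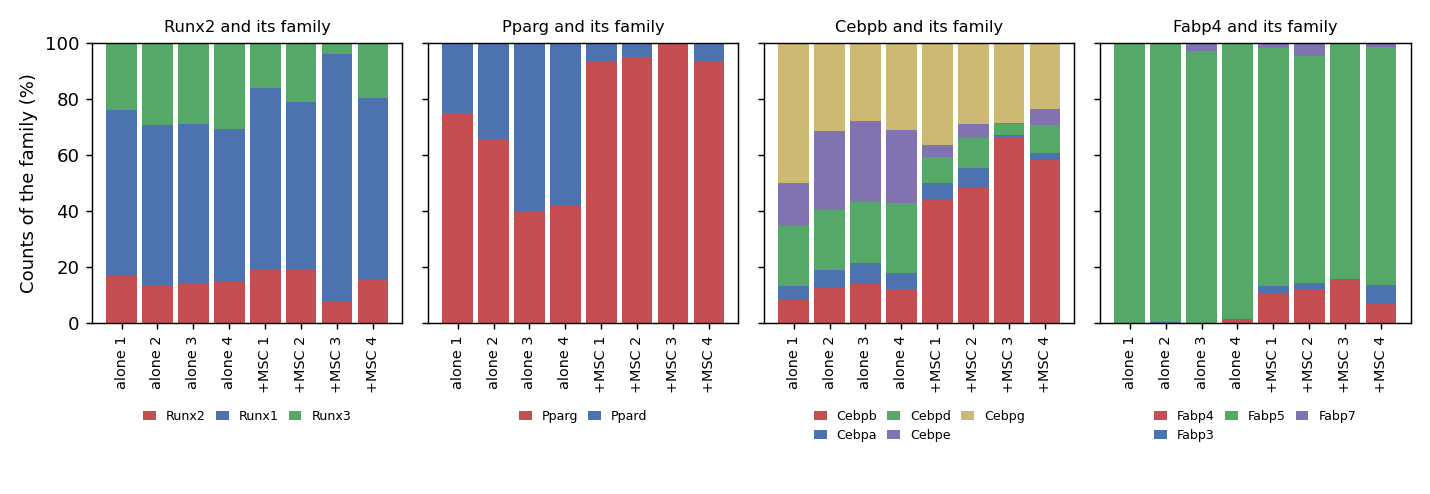
Share in percent of the counts of each gene family in each of the 8 libraries (alone 1 to 4, +MSC 1 to 4), with the lineage gene at the bottom of each bar. Pparg, Cebpb and Fabp4 take a larger share in every coculture, with Cebpb at 54.3% against 11.8% on average, whereas the share of Runx2 overlaps between the groups.

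Relatives of the other members, and other lipases in the case of Lpl, were read in the same way. Lipa, the lysosomal acid lipase, rose from 133 to 389 CPM (log2 fold change 1.55, edgeR adjusted p = 0.00311). Pnpla2 and Lipe, the lipases of intracellular fat stores, had log2 fold changes of 0.02 and 0.83 with adjusted p of 0.978 and 0.544, and Lipe was called lower without the third coculture (adjusted p = 0.0176), in which it held 648 counts against 45 to 50 in the other cocultures. Twist2 held 0 counts in all MKs cultured alone and 48, 30, 548 and 29 in coculture (log2 fold change 10.13 ± 1.98, adjusted p = 0.0167). Prrx2 also held 0 counts there and 118, 148, 2 and 119 in coculture, and was not tested. The third coculture was thus the highest for Twist2 and the lowest for Prrx2 and Twist1.

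Other genes of the 3 programs were counted in lists that hold none of the 10 members. The lists share genes with the marker lists and the relatives, so these genes are counted in both places. Sparc and Col1a1 are also MSC markers, and Ibsp and Phex are also osteoblast markers. Cebpd, Twist2 and Prrx2 are among the relatives named above. Of 32 other osteogenic genes, 24 were in the table and 17 were tested, of which 4 were called higher and 1 lower. The median log2 fold change was 0.52 beside 0.03 over all genes tested, of which 13.2% were called higher and 7.31% lower. The 4 that rose were matrix and adhesion genes and a phosphate carrier, and 3 of them (Sparc, Col1a1 and Cdh11) passed the filter through the cocultures alone. Of the 13 tested genes that did not pass in this way, 1 was called higher, with a median log2 fold change of 0.45. Sparc, osteonectin, had 0.548 and 963 CPM (log2 fold change 10.95 ± 0.64, edgeR adjusted p = 1.8e-05). Col1a1, the main collagen chain of bone, had 0.287 and 521 CPM (10.96 ± 0.86), and Cdh11, a cadherin of osteoblasts and other stromal cells, had 0.0277 and 125 CPM (11.31 ± 0.69). Slc20a2, a phosphate importer, had 10.8 and 42.5 CPM (1.97). Mef2c, a transcription factor shared with MKs and lymphocytes, fell from 358 to 98.5 CPM (-1.86, adjusted p = 0.000981), and Ctnnb1, which encodes beta-catenin, had a log2 fold change of 0.87 (adjusted p = 0.00647), below the fold asked for. Sp7 and Bglap, which define osteoblasts, had no row in the table. Without the third coculture, 10 of 21 tested genes of the list were called higher and 1 lower, beside 20.6% and 15.4% of all genes. Bmpr1a, Msx2, Tnfrsf11b, Tnfsf11 and Wnt5a were among those added. All of these but Bmpr1a held at most 6 counts in a library of MKs cultured alone and could hardly have come out lower.

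Of 33 other adipogenic genes, 25 were in the table and 21 were tested, of which 5 were called higher and 2 lower. The median log2 fold change was 0.33, and 13.2% of all genes tested were called higher and 7.31% lower. Cd36, a fatty acid transporter that platelets and macrophages also carry, had 37.1 and 1030 CPM (log2 fold change 4.80 ± 0.42, edgeR adjusted p = 0.000105). Plin2, the coat of small lipid droplets, had 130 and 565 CPM (2.12), and Rxra, the DNA-binding partner of Pparg, had 1.28 and 21.9 CPM (4.05, adjusted p = 0.0042). Angptl4, an inhibitor of the lipase that Lpl encodes, had 5.05 and 45.3 CPM (3.16), and Fasn, fatty acid synthase, had 33.8 and 98.9 CPM (1.55). The 2 that fell were Cebpd and Dgat2, the acyltransferase of triglyceride synthesis, which had 120 and 12.1 CPM (-3.31). Acly, which feeds fatty acid synthesis, had 185 and 186 CPM (0.01). Of a list of 6 adipocyte markers, which includes Adipoq and Plin1, 0 had a row in the table. Without the third coculture, 9 of 23 tested genes were called higher and 4 lower, beside 20.6% and 15.4% of all genes. Ebf2, Lmf1, Plin4 and Scd1 were added to those that rose and Dgat1 and Lipe to those that fell. Ebf2 and Plin4 held at most 1 count in a library of MKs cultured alone and could hardly have come out lower.

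Of 28 other mesenchymal regulators, 23 were in the table and 16 were tested, of which 10 were called higher and 0 lower by edgeR, with a median log2 fold change of 4.37. DESeq2 also called 0 lower, and 0 were lower at an unadjusted p under 0.05. The 10 were Foxc1, Twist2, Snai2, Tbx18, Ebf3, Snai1, Sox9, Nr2f2, Id3 and Id2. The first 8 of these were under the filter's 1.27 CPM in every library of MKs cultured alone and passed through the cocultures alone, so their direction and the median of the list were set in part by the filter. Of the other 8 tested genes, 2 were called higher, beside 13.2% of all genes tested, with a median log2 fold change of 0.44. Foxc1, which marrow stromal cells use to keep their niche function, held 0 counts in MKs cultured alone and 47.7 CPM in coculture (log2 fold change 11.55 ± 0.77, edgeR adjusted p = 0.000223). Snai2, a zinc finger regulator of mesenchyme, had 0.276 and 101 CPM (8.73 ± 0.91), and Sox9, the regulator of cartilage, had 0.148 and 15.4 CPM (6.44, adjusted p = 0.00236). Id2 and Id3, inhibitors of helix-loop-helix factors such as Twist1, were already present alone, with 38.6 and 34.9 CPM, and had 135 and 214 CPM in coculture. Zeb2, also made by myeloid cells, had 130 and 99.1 CPM (-0.39, adjusted p = 0.283). Leaving out the third coculture gave 16 of 22 tested genes higher and 0 lower, beside 20.6% and 15.4% of all genes. The genes added there held at most 2 counts in any library of MKs cultured alone, so they could hardly have come out lower.

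**Figure D4:**
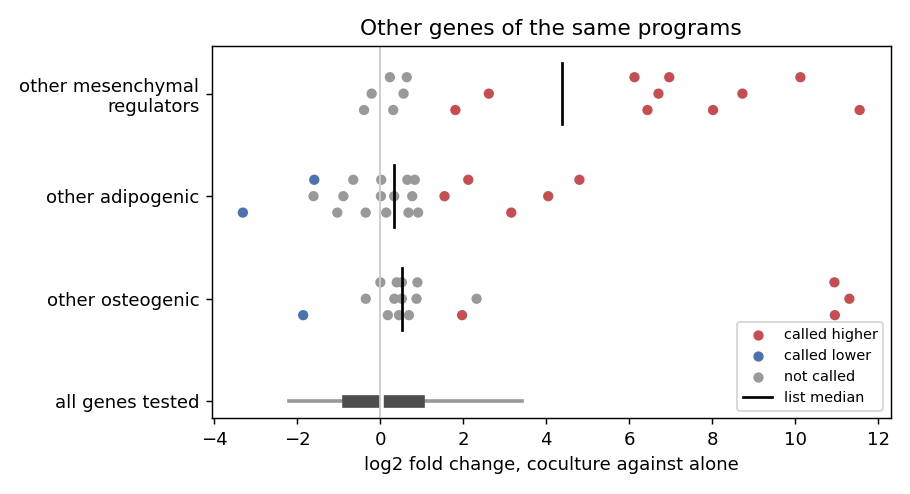
Log2 fold change of the tested genes of the osteogenic, adipogenic and mesenchymal lists other than the 10 members, with black lines for the list medians and, for all genes tested, a thin bar from the 5th to the 95th percentile and a thick bar for the middle quartiles. The mesenchymal list has its median at 4.37, set in part by 8 genes that passed the filter through the cocultures alone, and the osteogenic and adipogenic lists have theirs at 0.52 and 0.33, near the median of all genes of 0.03.

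Markers of several cell types moved with these changes, and their part in them was not tested. Of 10 tested MSC markers, 7 were called higher and 1 lower, where 13.2% of all genes tested were called higher and 7.31% lower. Of the 7, Col1a1, Col3a1, Cxcl12 and Sparc passed the filter through the cocultures alone and could hardly have come out lower. Of the other 6 tested, 3 were called higher, with a median log2 fold change of 2.96. The mean log2(CPM + 1) of the list was 1.90 to 2.12 alone and 4.27 to 6.62 in coculture, with the third library the lowest of the cocultures. Pdgfra, used to sort the MSCs, held 0, 5, 1 and 0 counts alone and 367, 204, 2 and 143 in coculture. Itgav, which encodes the other sort marker CD51, rose from 40.5 to 253 CPM (log2 fold change 2.64, edgeR adjusted p = 0.00286). Lepr, a receptor of marrow stromal cells, held 32, 18, 0 and 4 counts in coculture and at most 2 in a library of MKs cultured alone. Col1a2 and Col3a1, fibrillar collagens, had log2 fold changes of 6.89 and 12.41, and the one marker that fell was Nt5e (-3.66). The third coculture, which had the highest Pparg, Cebpb, Fabp4, Lpl and Prrx1, held few or no counts of Pdgfra and Lepr. Sparc, Col1a2, Col1a1, Col3a1 and Pdgfrb had 548, 364, 115, 84.2 and 38.1 CPM there. Each was above every library of MKs cultured alone but lowest in that library among the cocultures. The other cocultures had 871 to 1419 CPM of Sparc and 520 to 795 CPM of Col1a1.

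Of 10 tested macrophage markers, 9 were called higher, of which C1qa passed the filter through the cocultures alone. Of the other 9 tested, 8 were called higher, where 13.2% of all genes tested were. Cd163, which did not pass the filter, went the other way. It held 8, 24, 12 and 7 counts alone and 3, 4, 0 and 3 in coculture. DESeq2 called 10 markers of the list higher and 1 lower, beside 17.9% and 10.5% of all genes. The mean of the list was 2.17 to 2.63 alone and 5.04 to 5.75 in coculture, the third library among them with 5.12. Adgre1, which encodes F4/80, rose from 39.8 to 220 CPM (log2 fold change 2.47, edgeR adjusted p = 0.000301), Csf1r, the receptor of the macrophage growth factor, from 105 to 263 CPM (1.33), and Cd68 from 38.7 to 298 CPM (2.94). The complement genes C1qa, C1qb and C1qc had log2 fold changes of 6.39, 7.68 and 7.08. C1qb held 602, 982, 2839 and 421 counts in the cocultures. Of the osteoclast list, 5 of 8 genes were in the table and 3 were tested. Atp6v0d2 was called higher (log2 fold change 7.52, edgeR adjusted p = 0.00254), where 13.2% of all genes tested were. It held at most 4 counts in a library of MKs cultured alone and could hardly have come out lower. Nfatc1 and Acp5 had log2 fold changes of -1.55 and -0.40 (adjusted p of 0.197 and 0.592). Untested Ctsk held 0, 4, 1 and 5 counts alone and 290, 232, 1 and 156 in coculture. Untested Dcstamp held 0 counts alone and 15, 17, 32 and 2 in coculture. Without the third coculture, Atp6v0d2 and Ctsk were called higher and Nfatc1 lower, beside 20.6% and 15.4% of all genes.

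All 10 neutrophil markers fell, including S100a9 (log2 fold change -3.03), Ngp (-2.94), Mpo (-4.63), Elane (-4.43) and Ly6g (-4.69). Of all genes tested, 7.31% were called lower. Of 6 B cell markers 4 fell, and the list had a mean of 5.78 to 6.09 alone and 2.19 to 4.21 in coculture, with Ms4a1, Cd79a and Cd79b at -2.82, -2.30 and -2.66. Of 5 tested endothelial markers 1, Tek, fell (-1.68, edgeR adjusted p = 0.0195), and Tie1 and Esam had log2 fold changes of -1.31 and -1.57 (adjusted p of 0.409 and 0.313). The endothelial list had a mean of 2.62 to 3.10 alone and 0.771 to 2.34 in coculture. The levels of Runx2 and Runx3 moved in the same direction as the neutrophil, B cell and endothelial lists, which was not tested further. Of the 12 MK markers, 0 were called by edgeR, 0 by DESeq2 and 0 at an unadjusted p under 0.05, and 2 were called lower by edgeR without the third coculture. Pf4, Ppbp and Itga2b had log2 fold changes of 0.35, 0.35 and -0.39. Of the osteoblast markers only Ibsp and Phex were in the table. Ibsp held 32, 56, 0 and 0 counts and Phex 27, 0, 83 and 11 counts in the cocultures, against at most 3 of either gene in a library of MKs cultured alone.

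**Figure D5:**
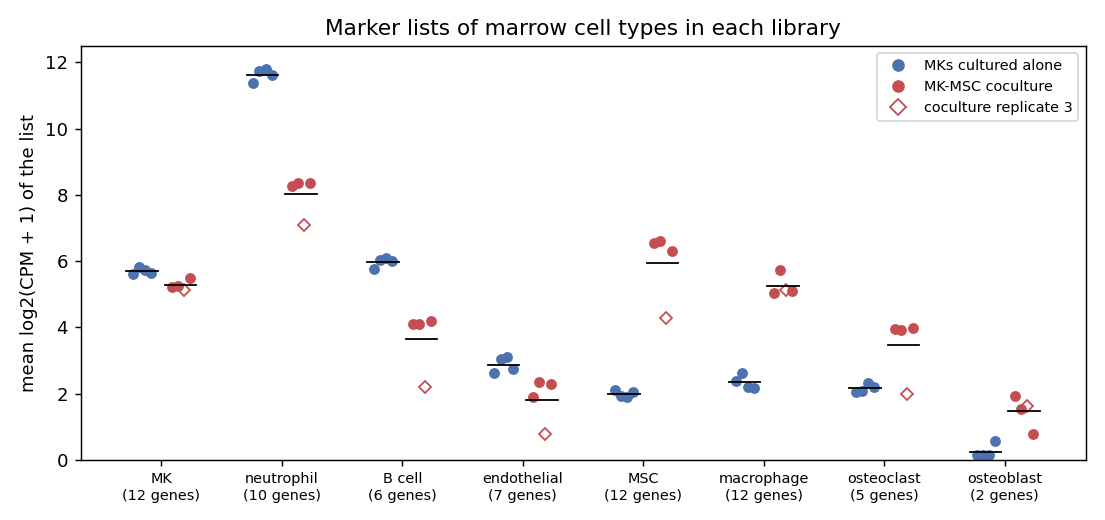
Mean log2(CPM + 1) of marker lists of marrow cell types in each of the 8 libraries, with lines for the mean of 4 libraries and open diamonds for the third coculture library. MSC and macrophage lists sit higher and neutrophil, B cell and endothelial lists lower in the cocultures, and the third coculture has the lowest MSC list of the cocultures at 4.27.

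For each tested member, the 2 genes with the most alike pattern were taken from the Pearson correlation of log2(CPM + 1) over the 8 libraries, which share the contrast between the groups. Spp1 was nearest to Bgn and Fbn1 (r of 0.9992 and 0.9989), which encode matrix proteins. Prrx1 was nearest to Nrp2 and Cdkn2b (0.9988 and 0.9983), Lpl to Apbb2 and Rpl39l (0.9974 and 0.9968), and Fabp4 to Mrpl20 and Cgref1 (0.9992 and 0.998). Pparg was nearest to Jam3 and Ctnna1 (0.9958 and 0.9943), Cebpb to Uap1l1 and Zdhhc8 (0.995 and 0.9945), and Runx2 to Ppm1k and Dennd1b (0.9929 and 0.9916). The neighbours of Runx2 were called lower, and those of the other members were called higher except Zdhhc8 and Mrpl20, which were not called.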

How the data were processed

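The authors deposited 1 table of raw counts per gene for 8 bulk libraries, as whole numbers without normalization. Per the study's methods and the labels, SMART-Seq HT libraries were sequenced in read pairs, filtered with fastp and quantified with kallisto on mm10; whether strand was used is not given in the sources used here. Every gene in the table had at least 11 counts in all. The groups and replicate numbers came from the labels. Replicates were separate samples by label, and a figure legend of the study counts them as mice. The batches in the authors' DESeq2 model are not named in the labels.

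All values were computed from the counts. The quasi-likelihood test of edgeR 4.0.16 (R 4.3.3) was run on all 8 libraries with no covariate, after filterByExpr, with TMM factors, robust dispersions and Benjamini-Hochberg adjustment over all 11722 genes tested. DESeq2 1.42.0, other scalings and filters, the replicate number as a block and leaving out each library were alternatives. Family shares were compared by exact permutation with scipy 1.17.1. The edgeR and DESeq2 tests, but not the permutation test, were checked on simulated counts that held no deviating library. Gene positions and transcript lengths came from GENCODE vM21 on GRCm38, and promoters from RefSeq on GRCm38.p6. Reads carry no molecular identifiers, so floors and intervals cover counting error only.

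The members and gene lists were chosen with earlier results of these data known. Beside the 10 members, the text names every detected gene grouped with them by family, name or function. Of each list it names the 3 genes with the highest mean level and the 3 called genes with the largest change. Named as well are 12 preset marker genes and the 2 genes most alike to each tested member. Slc20a2, Ctnnb1, Fasn, Angptl4, Cebpa, Nt5e, Pdgfrb, Supt3, Tmem189, Ctsk, Dcstamp and Cd163 were named after their values were seen. So were genes named because a count of 10 or fewer needed its members. The values of 1 gene of the osteogenic list are not reported here.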

Additional observations from a re-analysis of the deposited data

Results flagged for a closer look

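Of 27 groups of 4 libraries examined over the 10 members and the 4 family shares, 5 held a library whose gap to the others, as a part of the group's range, was over Dixon's 95% limit. About 1.35 of 27 groups would do so by chance if all values were normal. A group with 0 counts in all libraries but 1 is over the limit by construction, so that number does not hold here. Of the 5, 2 were the third coculture library. On the log2(CPM + 1) scale, Runx2 was 3.31 in that library against 4.26 to 4.38 in the other cocultures, and Twist1 was 0 against 2.54 to 2.90. The other 3 rest on 1 or 2 counts in MKs cultured alone: Fabp4 was 0.406 in replicate 4 and Twist1 was 0.152 in replicate 3, with 0 in the other three libraries of the group, and the share of Fabp4 in its family was 1.54% in replicate 4 against 0% in the others.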

How the results depend on the processing

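DESeq2 called 10 members in place of 6, with Runx2 as the 1 called lower, and 3641 genes in place of 2401, of which 1345 were lower in place of 857. Leaving out 1 library at a time gave 5 to 8 members called, 5 to 8 of them higher, and 1634 to 4420 genes called, with 1071 to 2530 higher and 539 to 1890 lower. The upper ends came without the third coculture. Without it, 10 in place of 4 osteogenic, 9 in place of 5 adipogenic and 16 in place of 10 mesenchymal genes of the lists were called higher, and 4 in place of 2 adipogenic genes lower. DESeq2 called 9 osteogenic, 8 adipogenic and 14 mesenchymal genes higher. Both alternatives for the lists were chosen after seeing the data. Msx2, Ebf2 and Prrx2, among the genes added without the third coculture, had few or no counts in MKs cultured alone. The filter thus set their direction in part. Of the single-member log2 fold changes, 102 kept their direction and their call, Runx2 was called under DESeq2 (-1.09), and Cebpb was lost in the fits without replicate 1 or replicate 2 of the MKs cultured alone. Runx2 was not called in the other fits, but without the third coculture its adjusted p passed (0.00247) while its fold fell below 2 (-0.87), and its fold was also below 2 with library size only (-0.99) and without replicate 1 of the MKs cultured alone (-0.93). Alpl and Twist1 were called in the fit without a filter and not called in the filtered fits that left out any 1 library of MKs cultured alone. The cause was not tested. With the replicate number as a block, 6 members and 1669 genes were called, and the median over all genes moved from 0.03 to -0.14 on the log2 scale. Same-numbered libraries correlated in their deviations from the group means at 0.369, 0.0198, 0.15 and 0.028, so the numbers were not shown to pair the libraries. Replicates 1 and 3 correlated best with their own number. Within the replicate block, the family share differences were 0.444, 39.9, 42.5 and 10.8 percentage points for Runx2, Pparg, Cebpb and Fabp4, where the exact sign-flip test cannot go below 0.125. With 1 library left out they were -0.801 to 3.09, 34.7 to 46.4, 38.5 to 45.9 and 9.31 to 12.2. Alpl, Dlx5 and Twist1 held at most 68 counts in a library, so their values rest on few counts.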
